A study of Mus musculus with 6 samples.

Results

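Proteasome genes were examined in mouse whole bone marrow 24 h after induction of c-Jun. The members were all probe sets whose only gene symbol in the authors' deposited table begins with Psma to Psmg and a number, without the interferon-inducible Psmb8, Psmb9 and Psmb10. They came to 98 of 45101 probe sets and read 46 of the 20678 genes with a probe set of their own. By textbook role, 16 genes encode the 20S core particle, 17 the 19S regulatory particle, 5 activators and an inhibitor, and 7 assembly chaperones. The symbol of the remaining gene, Psmc3ip, matches the pattern, although it encodes a meiotic recombination factor and no proteasome part, and it was counted apart. Its signals were 3.0, 2.0 and 3.1 in induced arrays, against 4.0, 1.2 and 3.2 in control arrays.

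The 3 induced arrays came from c-Jun inducible mice given doxycycline, the inducing antibiotic, in drinking water at 1 mg/ml for 24 h (day 1), and the 3 control arrays from mice of the same kind before induction (day 0). Every array read marrow RNA of 3 pooled mice, aged 8 weeks. The promoter that drives the transgene, the genetic background and any mice given doxycycline without the transgene are not given in the sources used here, so the antibiotic and the induced gene cannot be told apart. The labels describe them as biological replicates, and the p-values measure the spread between such pools.

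The proteasome is the protease of cytosol and nucleus that degrades proteins tagged with ubiquitin. Its 20S core is a barrel of alpha rings, which form the gate, around beta rings, which hold the cutting sites. The 19S particle caps the barrel, with ATPases in its base that unfold the substrate and a lid that removes ubiquitin. Erythroid precursors rely on the proteasome to clear proteins as they mature, and marrow holds them beside granulocyte, monocyte and lymphocyte lineages.

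Values are deposited signals (arbitrary units), and a ratio divides the induced mean by the control mean. Tests were run with limma on log2(signal + 16), with Benjamini-Hochberg adjustment over all 31526 probe sets tested, and a gene is called where its adjusted p is under 0.05. Each gene is represented by its brightest probe set. Signals differed in scale between arrays, with the summed signal at 278500, 222930 and 238092 in induced arrays and 189287, 214051 and 214237 in control arrays. Across the 1913 genes whose signal averaged over 10, the middle log2 change was 0.20, and 0.03 after quantile normalization, so changes of members are to be read against that shift. After that normalization the called genes Psma5 (limma, adjusted p = 0.198), Psma7 (0.259), Psmc1 (0.289), Psmc6 (0.0797), Psmd1 (0.0727) and Psmd4 (0.176) were no longer called. The 5' signal of the Gapdh control probe sets was 27.7%, 28.9% and 25.8% of their 3' signal in induced arrays and 14.1%, 22.8% and 12.5% in control arrays (p = 0.1 by a two-sided exact permutation test, the lowest value possible with 3 arrays a group). The part of the Gapdh difference in the results was not tested.

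Of the marrow markers, the 9 erythroid genes summed to 261 to 338 in induced arrays, against 1109 to 1292 in control arrays, and 7 of the 8 tested fell. The 9 neutrophil genes summed to 10030 to 11710 in induced and 8600 to 9859 in control arrays, with 2 higher and 4 lower. Most of that sum is S100a8 and S100a9, the 2 called higher, with means of 3701 and 5410 in induced and 2836 and 4277 in control arrays. Elane, Mpo, Prtn3 and Ltf were called lower, at ratios of 0.354, 0.478, 0.355 and 0.761. Ngp (0.828), Camp (0.741) and Mmp8 (1.29) were not called. The 7 B cell genes summed to 122 to 132 and 77.1 to 84.4 (2 of 6 tested higher), the 6 monocyte and macrophage genes to 83.0 to 106 and 45.2 to 63.4 (5 of 6 higher), and the 4 megakaryocyte genes to 34.4 to 51.9 and 14.2 to 26.2 (2 of 4 higher), in induced and in control arrays. The 4 T cell genes summed to 3.6 to 5.8 in induced and 3.1 to 4.5 in control arrays, with none called, and Cd3g, Pax5 and the single-symbol probe set of Hba-a1 stayed at or under 2 on every array. Some markers went against the sum of their list, without a call. Rhag was higher (ratio 1.60) among the erythroid genes, and Vpreb1 was lower (0.624) among the B cell genes. Ccr2 was lower (0.663) among the monocyte and macrophage genes, and the dim Gp9 was lower (0.667) among the megakaryocyte genes. In whole marrow, fewer cells of a type and less RNA per cell cannot be told apart. The part of these shifts in the proteasome values was not tested.

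Of the proteasome genes called in induced marrow, 16 were higher, 15 of them core or regulatory subunits and 1 the activator Psme1, and 1, the activator Psme4, was lower. Of 87 member probe sets tested, 19 were higher and 1 lower, against a background of 4.19% higher and 1.35% lower among all probe sets tested. By gene, 16 of 45 tested were higher and 1 lower, against 5.13% and 1.83% of all 16273 genes. Calls are more frequent among bright genes: 30.1% of all genes with a mean signal over 10 were called higher, beside 15 of the 29 members that bright. The groups did not overlap in 22 member genes that were higher and 1 that was lower, against 12.4% and 7.42% of all genes tested. Of the 22, 19 had a mean signal over 10. The share without overlap among all genes that bright was not computed, so this contrast does not account for brightness. These counts depend on the processing: 9 to 19 member genes were higher when 1 array was left out (9 without control 2 and 9 without control 3, 19 without induced 2), 10 were higher and 2 lower after quantile normalization, and 6 were higher and 0 lower without the filter on low signals. By the authors' deposited p-values, adjusted here, 1 was higher and 0 lower, and at a pseudocount of 1 the counts were 0 and 0 (limma). Over all probe sets, 1320 were higher as deposited, 879 without control 2, 946 without control 3 and 1363 without induced 2. The count over all was 957 after quantile normalization, 595 without the filter, 339 by the authors' p-values and 110 at a pseudocount of 1.

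**Figure D1:**
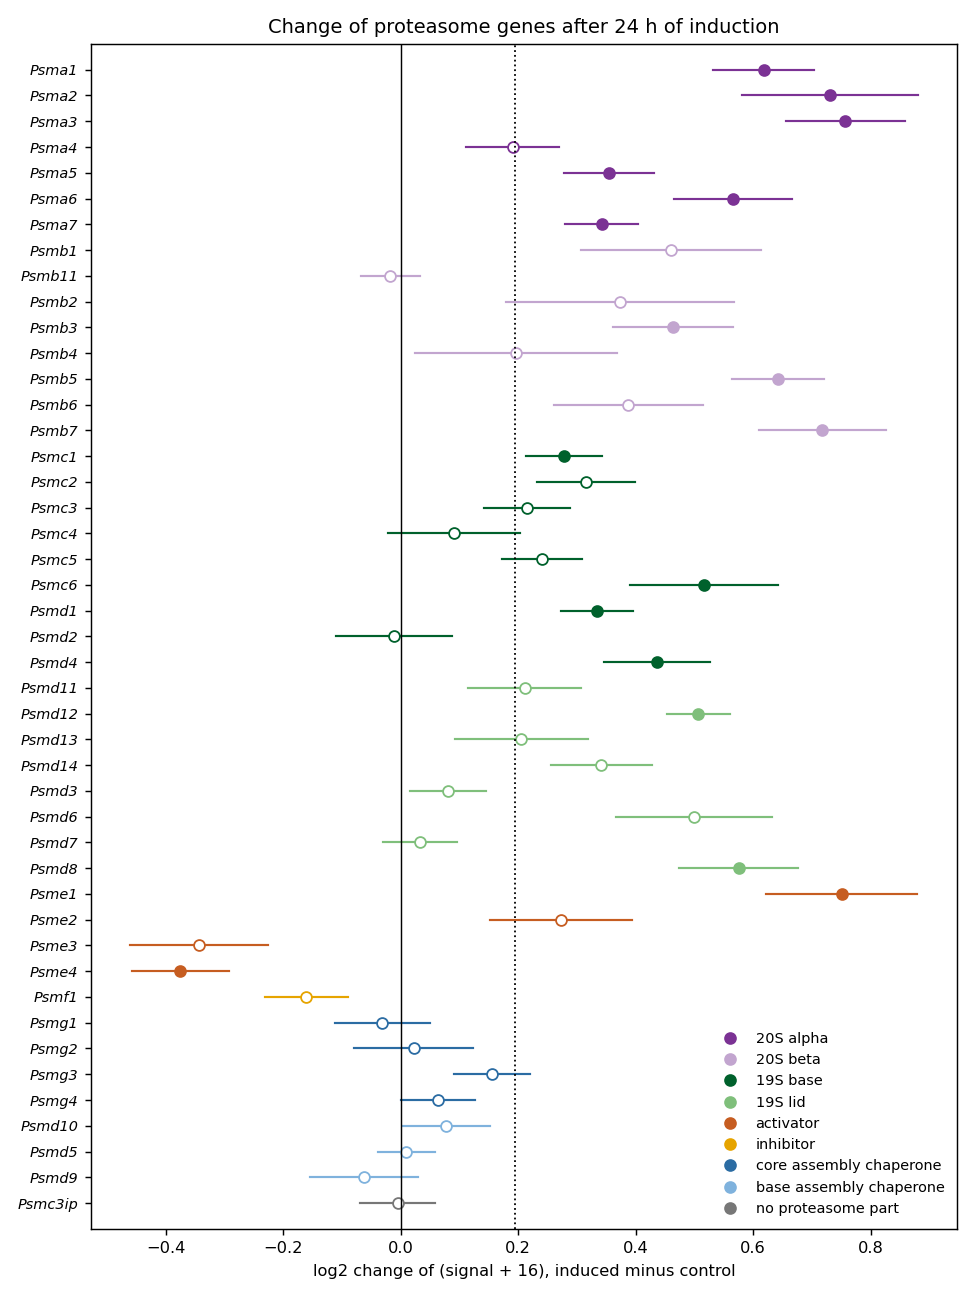
Log2 change of (signal + 16), induced minus control, for the 45 member genes tested, with bars of 1 standard error (3 arrays a group). Filled points passed an adjusted p of 0.05, open points did not, and the dotted line marks the median change of 0.20 over all genes with a mean signal over 10. The 20S genes lie mostly right of that line, while Psme3, Psme4 and Psmf1 lie left of 0.

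The alpha subunits form the gated outer rings of the core. Of 7 tested, 6 rose and 0 fell, and the 7 had ratios of 1.38 to 2.39. All 7 had a mean signal over 10, and 30.1% of all genes that bright were called higher. Psma3 read 44.8, 32.8 and 34.9 in induced arrays, against 11.7, 16.4 and 18.9 in control arrays. Its groups stood well apart, with a mean of 37.5 ± 6.41 in induced and 15.7 ± 3.66 in control arrays (SD, n = 3 each) and a log2 change of 0.76 ± 0.10 (SE) (limma, adjusted p = 0.00242). Psma1 read 29.5, 28.5 and 33.9 in induced arrays, against 10.5, 15.7 and 17.3 in control arrays. All induced arrays lay above all control arrays, at a ratio of 2.11 (limma, adjusted p = 0.00301). Psma1 kept its call without any 1 array, with an adjusted p of at most 0.0188, and Psma3 did likewise, with at most 0.0205.

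Psma6 read 53.3, 34.2 and 42.2 in induced arrays, against 24.5, 22.3 and 24.3 in control arrays. The control arrays lay close together, and induced 1 was the brightest (ratio 1.82; limma, adjusted p = 0.0105, and 0.0687 without control 2). Its other bright probe set overlapped and was not called, with 40.5, 41.6 and 30 in induced arrays and 26.0, 20.3 and 36.5 in control arrays (ratio 1.35; adjusted p = 0.337). Psma7 read 20.7, 24.3 and 20.9 in induced arrays, against 12.4, 13.5 and 16 in control arrays (ratio 1.57; adjusted p = 0.0120, and 0.0566 without control 2). A separate probe set of Psma7 was also called, with 27.0, 19.4 and 19.8 in induced arrays and 8.9, 11.1 and 9.8 in control arrays (adjusted p = 0.00333). Both probe sets of Psma7 thus rose, the second by a ratio of 2.22.

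Psma2 read 45.2, 28.7 and 45.7 in induced arrays, against 15.9, 24.8 and 12.4 in control arrays (ratio 2.25; limma, adjusted p = 0.0212). Induced 2 came close to control 2, and the call was lost without control 1 (0.0767), control 3 (0.0903), induced 1 (0.0641) or induced 3 (0.0951). Psma5 read 39.3, 32.0 and 40.0 in induced arrays, against 22.4, 25.6 and 28.5 in control arrays (ratio 1.45; adjusted p = 0.0265), and lost its call without control 1 (0.0936), control 2 (0.0986), induced 1 (0.0882) or induced 3 (0.115). Its other bright probe set rose by a ratio of 1.91 (adjusted p = 0.00876). Psma4 was the alpha subunit of the rings that was tested and not called, at 16.6, 14.2 and 10.1 in induced arrays and 10.4, 8.8 and 10.4 in control arrays (adjusted p = 0.30). The groups of Psma4 overlap in 1 induced array, while the authors' deposited table gives it an induced over control ratio of 1.86. Psma8, known as a testis form of an alpha subunit, was too dim to be tested, with no signal above 1.1 on any array.

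The beta subunits line the chamber, and Psmb5, Psmb6 and Psmb7 encode the ones that cut. Of 8 tested, 3 rose and 0 fell, and 2 of these 3 carry a cutting site. Among the 6 beta genes with a mean signal over 10, 3 rose, beside 30.1% of all genes that bright. Psmb5, the chymotrypsin-like site, read 24.9, 21 and 21.1 in induced arrays, against 7.6, 6.7 and 11.6 in control arrays. The lowest induced array was well above the highest control array, with means of 22.3 ± 2.22 and 8.63 ± 2.61 (SD, n = 3 each), a ratio of 2.59, the highest among core genes with a mean signal over 10, and a log2 change of 0.64 ± 0.079 (SE) (limma, adjusted p = 0.00153). Psmb7, the trypsin-like site, read 36.5, 34.0 and 25.7 in induced arrays, against 9.3, 13.6 and 16.9 in control arrays. Its groups did not overlap either (ratio 2.42; adjusted p = 0.00443), and both genes kept their calls without any 1 array (at most 0.0125 for Psmb5 and 0.0328 for Psmb7).

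Psmb6, the caspase-like site, read 38.7, 21.1 and 30.3 in induced arrays, against 16.3, 17.6 and 22.7 in control arrays. Induced 2 lay below control 3, and the ratio of 1.59 was not called (limma, adjusted p = 0.156). Psmb3, a structural subunit, read 55.8, 40.2 and 37.6 in induced arrays, against 25.9, 26.2 and 30.7 in control arrays (ratio 1.61; adjusted p = 0.0303), and lost its call without control 1 (0.104), control 2 (0.140) or control 3 (0.0602). The groups did not overlap on that probe set, but did on the other bright probe set of Psmb3, which was not called, with 20.7, 10.6 and 18.8 in induced arrays and 3.1, 10.9 and 12.8 in control arrays (adjusted p = 0.279).

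Psmb1 was not called although its groups did not overlap, at 46.5, 27.5 and 32.0 in induced arrays and 13.6, 25.8 and 24.5 in control arrays (ratio 1.66; adjusted p = 0.164). Psmb4 read 43.0, 31.4 and 32.6 in induced arrays, against 30.6, 17.4 and 42.0 in control arrays (adjusted p = 0.727). Control 3 of Psmb4 was close to the highest induced array, and its other bright probe set gave 27.9, 18.9 and 23.4 in induced and 16.9, 15.4 and 19.4 in control arrays (adjusted p = 0.189). Psmb2 read 21.4, 6.3 and 8.7 in induced arrays, against 1.8, 10.6 and 4.0 in control arrays (adjusted p = 0.464). Its groups overlap, and induced 1 is far above the other arrays. Psmb11, the thymus-specific subunit, had no signal above 1.0 on any array.

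**Figure D2:**
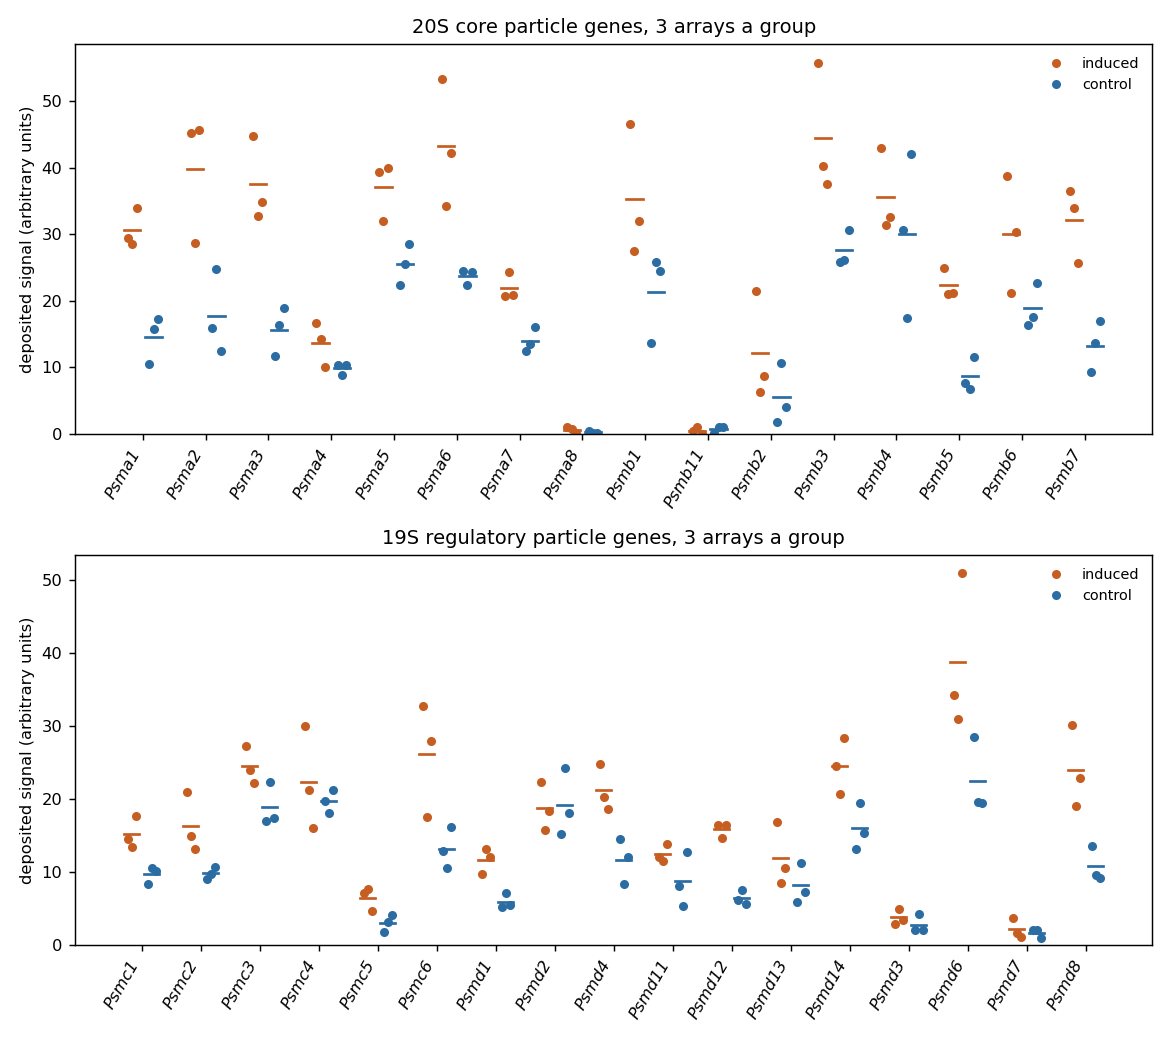
Deposited signal (arbitrary units, linear axis from 0) of each 20S core gene (top) and each 19S regulatory gene (bottom). Points are the 3 induced arrays (orange, left) and the 3 control arrays (blue, right) of a gene, and short lines are group means. Psmb5, Psmb7, Psma1 and Psma3 show separated groups, Psmb4 and Psmd2 overlapping ones.

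The base of the regulatory particle holds the ring of ATPases Psmc1 to Psmc6 and the large scaffold or receptor subunits Psmd1, Psmd2 and Psmd4. Of 9 base genes tested, 4 rose and 0 fell; among the 7 with a mean signal over 10, 3 rose, beside 30.1% of all genes that bright. Psmd4, a receptor for ubiquitin chains, read 24.8, 20.3 and 18.7 in induced arrays, against 14.5, 8.3 and 12 in control arrays (ratio 1.83; limma, adjusted p = 0.0213). All induced arrays lay above all control arrays, and the call was lost without control 2 (0.0704), control 3 (0.0719) or induced 1 (0.0649). A dimmer Psmd4 probe set was also called, at 10.3, 6.1 and 6.3 in induced and 2.0, 2.5 and 3.7 in control arrays (limma, adjusted p = 0.034). Another, at most 2.3 on any array, was not called. Psmd1 read 9.8, 13.2 and 12 in induced arrays, against 5.2, 7.1 and 5.5 in control arrays (ratio 1.97; adjusted p = 0.0125), and lost its call without control 1 (0.0510), control 3 (0.0584) or induced 3 (0.0586). The scaffold partner of Psmd1, Psmd2, had 22.4, 15.7 and 18.4 in induced arrays and 15.2, 24.3 and 18.1 in control arrays. Those groups overlap fully (ratio 0.981; adjusted p = 0.980), with a log2 change of -0.01 ± 0.099 (SE).

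Among the ATPases, Psmc6 and Psmc1 rose. Psmc6 read 32.8, 17.6 and 28.0 in induced arrays, against 12.9, 10.5 and 16.2 in control arrays (ratio 1.98; limma, adjusted p = 0.0485). Psmc1 read 14.5, 13.4 and 17.7 in induced arrays, against 8.3, 10.6 and 10.2 in control arrays (ratio 1.57; adjusted p = 0.0376). Both calls were marginal and were lost without any 1 of 5 arrays, with adjusted p up to 0.213 for Psmc6 (without control 2) and 0.136 for Psmc1 (without induced 3); they held without induced 2 alone. The other ATPases were not called: Psmc2 had a ratio of 1.66 (adjusted p = 0.0680), Psmc5 2.14 at signals of at most 7.7 (0.0895), Psmc3 1.29 (0.173) and Psmc4 1.14 (0.829). Psmc4 read 30, 21.2 and 16 in induced arrays, against 19.7, 18.1 and 21.2 in control arrays, and its log2 change of 0.09 was -0.07 after quantile normalization. Its other probe set read 10.1, 14.5 and 10.2 in induced arrays and 6.1, 8.6 and 8.7 in control arrays. The groups did not overlap there, and the ratio of 1.49 was not called (limma, adjusted p = 0.195).

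The lid holds the deubiquitinase Psmd14 among scaffold subunits, and 2 of its 8 genes rose while 0 fell. Among the 6 lid genes with a mean signal over 10 these 2 are a share near the 30.1% of all genes that bright. Psmd12, a lid scaffold subunit, had the smallest p of all members. It read 16.5, 14.7 and 16.4 in induced arrays, against 6.2, 7.5 and 5.6 in control arrays. Both groups were tight, at 15.9 ± 1.01 in induced and 6.43 ± 0.971 in control arrays (SD, n = 3 each), a ratio of 2.47 and a log2 change of 0.51 ± 0.053 (SE) (limma, adjusted p = 0.000698, and at most 0.00614 without any 1 array). Psmd8 read 30.2, 19 and 22.9 in induced arrays, against 13.5, 9.6 and 9.2 in control arrays (ratio 2.23; adjusted p = 0.00969). The groups of Psmd8 did not overlap, and the call was lost without control 2 (0.0656) or control 3 (0.0526).

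Psmd14 itself read 24.5, 20.7 and 28.3 in induced arrays, against 13.2, 19.4 and 15.3 in control arrays (ratio 1.53; limma, adjusted p = 0.0564). Psmd6 read 34.3, 31.0 and 50.9 in induced arrays, against 28.5, 19.6 and 19.4 in control arrays (ratio 1.72; adjusted p = 0.0699), while its other bright probe set had a ratio of 1.06 (adjusted p = 0.936). In both genes the groups did not overlap on the brighter probe set, and neither was called. Psmd13 read 16.9, 8.5 and 10.5 in induced arrays, against 5.9, 11.3 and 7.3 in control arrays (adjusted p = 0.506). Psmd11 read 12, 11.5 and 13.9 in induced arrays, against 8.1, 5.4 and 12.8 in control arrays (adjusted p = 0.374). In these genes 1 control array lay among the induced ones. Psmd3 and Psmd7 were dim, with no signal above 5.0 and 3.7.

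Set side by side, 9 of 15 core genes and 6 of 17 regulatory genes tested were called higher, and 0 of either lower. Among those with a mean signal over 10, 9 of 13 core genes and 5 of 13 regulatory genes were called higher, against 30.1% of all genes that bright, so the regulatory count lies near the background. Leaving out 1 array gave 5 to 10 core and 1 to 8 regulatory genes, with 5 and 3 without control 2, 7 and 1 without control 3, and 10 and 8 without induced 2. After quantile normalization the counts were 7 and 2, and with a filter at the 60th percentile 9 and 8. The background moved as well: over all probe sets 1320 were higher as deposited, and 957 after quantile normalization. With the 60th percentile filter 1373 of 18015 were higher. Without control 2, control 3 and induced 2 the counts over all were 879, 946 and 1363. Over the 13 genes of each particle with a mean signal over 10, the median log2 change was 0.46 in the core and 0.31 in the regulatory particle, beside 0.20 over all genes that bright. As plain ratios of mean signals, the medians were 1.66 and 1.57, beside 1.28, and in the authors' deposited table they were 1.65 and 1.44, beside 1.09. Adding 16 compresses the change of dim probe sets, so the log2 medians also depend on brightness. No test was made of a difference between the particles.

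By array, the median core gene lay 0.72, 0.37 and 0.43 above its control mean in induced arrays, against -0.08, -0.02 and 0.13 in control arrays on the same log2 scale. The median regulatory gene lay at 0.39, 0.20 and 0.34 in induced arrays, against -0.03, -0.003 and -0.03 in control arrays. Induced 1 was the highest in both, and it also had the largest summed signal. The core median minus the regulatory median was 0.33, 0.16 and 0.10 in induced arrays, against -0.05, -0.02 and 0.16 in control arrays, so the groups overlap in that measure at control 3.

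**Figure D3:**
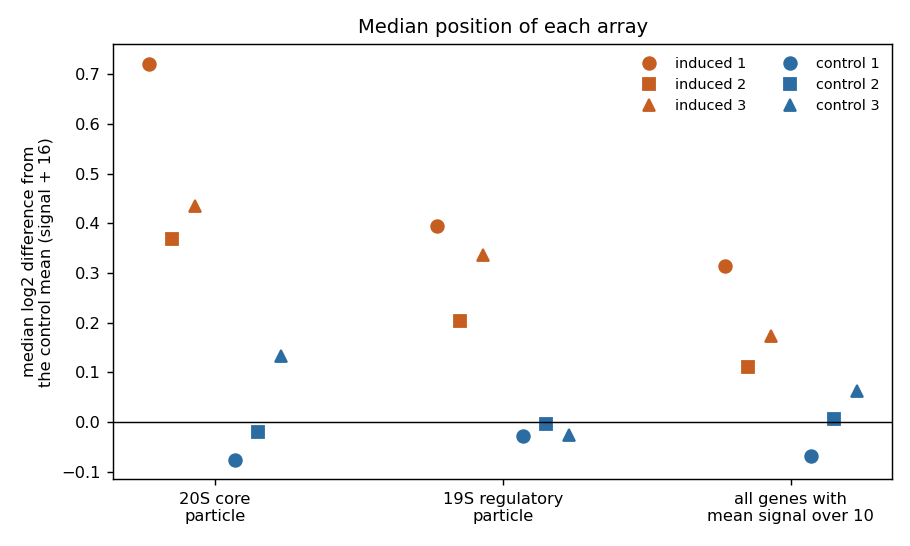
Median log2 difference of (signal + 16) from the mean of the control arrays, for each of 6 arrays, over 13 genes of the 20S core, 13 of the 19S particle and all 1913 genes with a mean signal over 10. Each point is 1 array (induced left in orange, control right in blue). Induced 1 is the highest array in all 3 sets, and the core set reaches 0.72 there.

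The activators, which open the core in place of the 19S particle, moved in both directions. Psme1 and Psme2 encode the subunits of the interferon-inducible PA28 ring. Psme1 read 58.8, 39.1 and 44.5 in induced arrays, against 21.8, 15.9 and 27.4 in control arrays. It rose by a ratio of 2.19, with no overlap and a call in every setting that left out 1 array (limma, adjusted p = 0.00863, at most 0.0470). Psme2 read 30.5, 16 and 22.6 in induced arrays, against 18.8, 13.4 and 15.8 in control arrays (ratio 1.44; adjusted p = 0.351). Induced 2 of Psme2 lay between control arrays. The difference between the subunits was not tested.

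Psme4, which encodes PA200, an activator of nuclear proteasomes, was the member called lower. Its brightest probe set read 5.3, 7.8 and 3.2 in induced arrays, against 12.1, 9.7 and 13.4 in control arrays. All induced arrays lay under all control arrays (ratio 0.463; limma, log2 change -0.38 ± 0.083 (SE), adjusted p = 0.0300). The call was lost without control 1 (0.0971), control 2 (0.0509), control 3 (0.125), induced 1 (0.0781) or induced 3 (0.103), and held without induced 2 alone. The called probe set has a name ending in _s_at and is counted among the cross-hybridizing probe sets kept here. Among 3 other Psme4 probe sets tested, none was called, and the one of largest change, at most 4.0 on any array, had a log2 change of 0.15 in the other direction (adjusted p = 0.228). Its groups did not overlap, at 4.0, 3.3 and 2.5 in induced and 1.8, 0.3 and 1.9 in control arrays (ratio 2.45).

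Psme3, the nuclear PA28 gamma, read 12.6, 8.5 and 9.5 in induced arrays, against 11, 22.0 and 19.5 in control arrays. Control 1 lay among the induced arrays, and the ratio of 0.583 was not called as deposited (limma, adjusted p = 0.179). Another Psme3 probe set, at most 9.1 on any array, was not called either (0.283). The brighter one was called lower after quantile normalization (0.0108), after scaling to 1 trimmed mean (0.0195), after scaling to 1 median of bright probe sets (0.0144) and without control 1 (0.0111). The authors' deposited table gives Psme3 an induced over control ratio of 0.4465 with an unadjusted p-value of 0.00324. Psmf1, the inhibitor PI31, was dim, at 0.1, 0.6 and 0.9 in induced arrays and 2.6, 4.3 and 0.7 in control arrays (adjusted p = 0.349).

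The assembly chaperones were dim throughout, and 0 of 7 passed the test in either direction (limma). Of the core chaperones Psmg1 to Psmg4, Psmg3 had the clearest separation, with 6.2, 3.2 and 3.3 in induced arrays, against 2.2, 1.7 and 2.5 in control arrays (adjusted p = 0.305, unadjusted p = 0.0390). The base chaperone Psmd5 read 4.9, 4.6 and 5.3 in induced arrays, against 5.5, 4.8 and 4.1 in control arrays, with overlapping groups. Psmd9 and Psmd10, also base chaperones, had no signal above 4.8 and 3.9 on their brightest probe sets. Signals of this size are close to the level at which 76.9% of all signals in the table lie, 2 or lower.

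Genes that work with the proteasome without a Psm symbol were taken from a list of 31, of which 28 have a single-symbol probe set. Of these, 1 rose, 2 fell and 25 were not called, beside 5.13% higher and 1.83% lower among all genes tested. The median log2 change was 0.11 over the 12 with a mean signal over 10, beside 0.20 over all genes that bright. Pomp, the chaperone that matures the core, read 53.6, 23.4 and 31.6 in induced arrays, against 11.4, 16.1 and 21 in control arrays. The ratio of 2.24 had no overlap and was not called (limma, adjusted p = 0.0810). Fbxo7, a binding partner of PI31, read 5.0, 3.9 and 3.2 in induced arrays, against 9.6, 10.8 and 6.0 in control arrays. It was 2.18-fold lower and just missed the call (adjusted p = 0.0533), which it passed after quantile normalization (0.0163) and without control 3 (0.0137). The 19S subunits outside the Psm names, Adrm1 and Sem1 (listed as Shfm1), had ratios of 1.29 and 0.973 (adjusted p = 0.285 and 0.954). Nfe2l1, the transcription factor known to induce proteasome genes when the proteasome is inhibited, had 5.6, 1.4 and 4.3 in induced arrays and 3.4, 7.3 and 9.5 in control arrays (adjusted p = 0.495). Its relative Nfe2l2 had 10.2, 8.0 and 11.4 in induced arrays and 6.0, 6.4 and 9.0 in control arrays (adjusted p = 0.325).

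**Figure D4:**
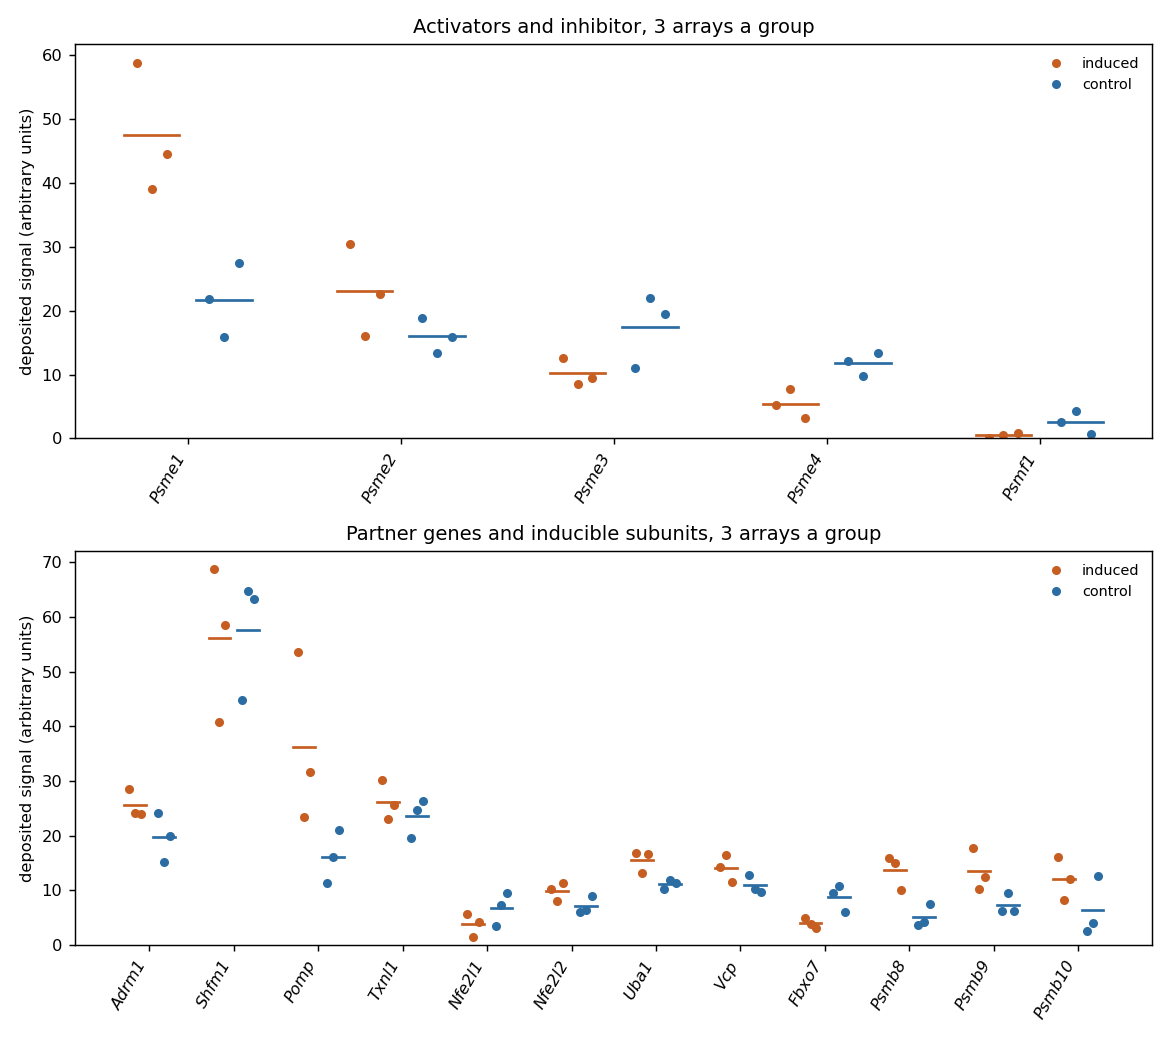
Deposited signal (arbitrary units, linear axis from 0) of the activators and the inhibitor (top) and of 9 partner genes and the 3 inducible subunits (bottom), in induced arrays (orange, left) and control arrays (blue, right), with group means as short lines. Psme1 is higher and Psme4 lower in induced arrays, and Pomp and Fbxo7 show groups that do not overlap without a call.

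The inducible beta subunits, which the rule leaves out, replace Psmb5, Psmb6 and Psmb7 in the immunoproteasome. Psmb8 read 15.9, 15.1 and 10.1 in induced arrays, against 3.7, 4.3 and 7.5 in control arrays, a rise by a ratio of 2.65 (limma, adjusted p = 0.0133, and 0.0527 and 0.0780 without control 1 and control 2). Psmb9 and Psmb10 had ratios of 1.85 and 1.88 and were not called (0.0849 and 0.371).

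Because 9 of 15 core genes were called higher, the members' promoters were searched for 3 short motifs on both strands in RefSeq sequence (GRCm38.p6, 250 bases before to 50 after a start). The table holds 40 promoters for 37 of the 45 genes with a proteasome role. CCAAT, the CCAAT box, was in 7 of 13 core promoters (53.8%) and 4 of 15 regulatory promoters (26.7%), against 37.4% of all 32851 promoters, and in 13 of all 40 member promoters (32.5%). TGACNNNGC, the core of the antioxidant response element that Nfe2l1 and Nfe2l2 proteins bind, was in 6 of 40 (15%), against 12.4%. TGANTCA, a loose pattern for the AP-1 site that allows any base in the middle, was in 2 of 40 (5.0%), against 7.81%. The matches were in Psmb5 at 42 bases after the start and in Psmd9 at 126 bases before it. A match describes letters, not binding.

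The sequences show where the motifs lie in genes with contrasting values: the called cutting subunit Psmb5 beside the uncalled Psmb6, each with 1 response element, the called Psma1 and Psmb3 with 2 CCAAT boxes each, and Psmd9, the dim base chaperone with an AP-1 site and a response element. Each is the 150 bases before the start, 5′ to 3′ on the gene's strand, with motif letters in capitals (ATTGG is CCAAT read on the other strand).
Psmb5, chr14:54617996-54618145, minus strand: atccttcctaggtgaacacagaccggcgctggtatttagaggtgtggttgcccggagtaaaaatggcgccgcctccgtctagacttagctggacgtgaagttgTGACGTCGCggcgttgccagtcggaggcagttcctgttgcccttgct
Psmb6, chr11:70525207-70525356, plus strand: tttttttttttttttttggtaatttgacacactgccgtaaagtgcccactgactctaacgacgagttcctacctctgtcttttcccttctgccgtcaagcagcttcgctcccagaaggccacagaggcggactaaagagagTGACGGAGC
Psma1, chr7:114276117-114276266, minus strand: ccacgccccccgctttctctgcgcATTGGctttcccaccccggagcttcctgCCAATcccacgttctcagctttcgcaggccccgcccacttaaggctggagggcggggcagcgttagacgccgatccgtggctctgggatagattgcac
Psmb3, chr11:97703284-97703433, plus strand: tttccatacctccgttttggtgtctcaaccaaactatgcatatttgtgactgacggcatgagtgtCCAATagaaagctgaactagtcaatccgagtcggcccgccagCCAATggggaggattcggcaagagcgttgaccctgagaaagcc
Psmd9, chr5:123228040-123228189, plus strand: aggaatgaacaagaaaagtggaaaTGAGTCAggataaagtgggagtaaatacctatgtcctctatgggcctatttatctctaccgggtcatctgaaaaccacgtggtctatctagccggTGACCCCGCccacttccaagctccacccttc

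The response element lies 47 bases before the start in Psmb5, with a ratio of 2.59, and 9 bases before it in Psmb6, with a ratio of 1.59 that was not called. Psme4, the member called lower, holds the same letters at 7 bases before its start. The motif also lies 227 bases before the start in Psmc6 and 247 bases before it in Psmd12, both called higher. In Psmd9, which was not called, it lies 31 bases before the start. A link between the motif and the calls was not tested. CCAAT boxes lie 126 and 98 bases before the start in Psma1 and 85 and 43 bases before it in Psmb3. They also lie in members that were not called, at 230, 47 and 24 bases before the start in Psmd10, and in Psmb11, Psmc2, Psmd14 and Psme3.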

How the data were processed

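Whole bone marrow RNA was measured on 6 Affymetrix mouse arrays, 3 induced and 3 control, with groups taken from the labels. Trizol extraction was followed by NuGEN amplification and biotin labelling, per the labels' protocols. Each probe set has 1 linear signal intensity an array in the authors' deposited values, for which the submitters' processing notes name MAS5; version and scaling target are not given in the sources used here. A second table deposited by the authors lists, per the file headers, an ANOVA p-value without adjustment and a control over induced ratio; the values behind it are not stated. That ratio was inverted here.

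Signals were used as deposited. Probe sets with a mean log2(signal + 16) over the 30th percentile were tested in limma 3.58.1 under R 4.3.3 (lmFit, then eBayes), and 64 control probe sets were left out. Since 76.9% of signals are 2 or lower, the pseudocount understates the log2 change of dim genes. Symbols came from the deposited ANOVA table; all 46 member symbols are current in the RefSeq mouse gene table. Intensities of different probe sets were not compared as levels. Cross-hybridizing probe sets (names ending in _x_at or _s_at) were kept.

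The members, subunit roles, partner list and markers were chosen with earlier results of these data known. All array values are given for the 12 called core and regulatory genes of smallest p and the 6 genes of largest p among those exceeding a signal of 10 on an array; other members and partners shown in full were chosen after their values were seen. On simulated signals of 31526 probe sets, the test recovered 39% of 100 probe sets changed 2-fold and 77% of 100 changed 4-fold. Of its calls, 4.13% were false. The simulated arrays were drawn without the difference in scale between arrays that the deposited signals show. These shares therefore do not cover calls that come with that shift. The changed probe sets were drawn only from those with a mean signal over 10, so recovery of dimmer ones was not measured. Exact permutation tests used scipy 1.17.1, and figures matplotlib 3.10.9. Some genes of the partner list are not reported here. The number of arrays limits the precision.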

Additional observations from a re-analysis of the deposited data

How the results depend on the processing

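As deposited, 19 member probe sets were higher and 1 lower (1320 and 427 over all probe sets), and 16 member genes were higher and 1 lower. Leaving out 1 array gave 11 to 23 probe sets higher and 0 to 1 lower, and 9 to 19 genes higher and 0 to 1 lower. Over all probe sets, the same fits called 879 to 1363 higher and 277 to 437 lower. At a pseudocount of 1 the counts were 0 and 0 for both (limma; over all probe sets 110 were higher and 101 lower), and at 64 they were 10 and 0 probe sets and 8 and 0 genes (801 and 286 over all). Without a filter 7 and 0 probe sets and 6 and 0 genes were called (595 and 246 over all), and by the authors' p-values, adjusted here, 2 and 0 and 1 and 0 (339 and 274 over all). Quantile normalization gave 10 genes higher, and 2 probe sets and 2 genes lower (957 and 840 over all); scaling to 1 trimmed mean likewise gave 10 genes higher and 2 and 2 lower (1039 and 596 over all), and scaling to 1 median of bright probe sets 2 and 2 lower (901 and 866 over all), the added one being Psme3. Averaging every probe set that reads a gene gave 11 genes higher and 0 lower.

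The core median of 0.46 became 0.26 after quantile normalization, 0.29 after scaling to 1 bright median, 0.72 at a pseudocount of 1, 0.24 at 64, 0.72 by the authors' ratios and 0.73 as plain log2 ratios, an alternative added after seeing the data. The regulatory median of 0.31 became 0.17, 0.19, 0.60, 0.12, 0.53 and 0.65 in the same order. No called result changed direction. The cause of the lost calls was not tested. Of the 17 called genes, 6 kept their call without any 1 array and 17 lost it at a pseudocount of 1. With the replicate block, 15 member probe sets were higher and 0 lower, and 13 genes were higher and 0 lower (1052 and 325 over all). Deviations of same-numbered arrays from their group means had correlations of -0.069, 0.038 and -0.030. With few arrays and mostly dim signals, these cannot exclude a shared litter or day. What the replicate numbers mark is not stated in the sources used here.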
